A study of Mus musculus with 10 samples.

Results

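Unproductive Igh rearrangements are V-D-J joins of the immunoglobulin heavy chain locus that cannot be read through to a heavy chain. They were taken as the clonotypes whose functionality field in the deposited tables reads unproductive, and there were 13200 of them among 195529 Igh clonotypes in 4 libraries. A clonotype is a rearrangement with its V, D and J genes and the amino acid sequence of its CDR3, the loop formed at the junction of the 3 gene segments. The libraries came from genomic DNA of peritoneal cavity B-1a cells purified by cell sorting, a set of mature B cells that arises mainly early in life. All mice were of C57BL/6 background, with 2 wild-type (WT) libraries and 2 libraries from Igll1-/- mice, which lack λ5, a part of the surrogate light chain (SLC), in every cell. Mice were 6 to 8 weeks old in both groups and carried no other allele or treatment named in the labels. The number of mice behind a library and whether animals were pooled are not given in the sources used here. P-values therefore measure only the spread between libraries, which may be technical. Between genotypes this is the spread between the libraries of a genotype. Between unproductive and productive clonotypes it is the spread of their difference over the 4 libraries. The tables list no cell markers, so the sort could not be checked against the expression of other genes.

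In developing B cells the heavy chain locus rearranges at random with respect to the reading frame, and a cell whose attempt on an allele fails can try the other allele. A mature B cell can therefore carry a failed rearrangement beside the expressed allele. Because no protein is made from the failed allele, its V, D and J genes and its CDR3 length are commonly read as the repertoire before selection of the heavy chain. A heavy chain that is made must normally pair with SLC to form the pre-BCR, a checkpoint that depends on λ5, the product of Igll1. D genes can be read in 3 frames, and in many mouse D genes at least a single frame carries a stop codon.

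The CDR3 sequences of the largest unproductive clonotypes show what these rearrangements look like. Each is written in capital amino acid letters from the deposited tables, an asterisk marks a stop codon, and the label gives the library and the V gene. The list is drawn from the 3 unproductive clonotypes with the most reads in each library.
WT replicate 1, IGHV11-2: MRYDDSYWYFDV
WT replicate 1, IGHV5-4: ARDELR*YYFDY
WT replicate 1, IGHV8-11: ARIVGVLR**PRVAY
WT replicate 2, IGHV1-7: ARRRLL**LRYYFDY
WT replicate 2, IGHV1-66: ARTLW*LPSYWYFDV
Igll1-/- replicate 1, IGHV5-17: ARL*LYAMDY
Igll1-/- replicate 1, IGHV12-3: AGDRGGYYYFD*
Igll1-/- replicate 1, IGHV1-47: ALR*YYFDY
Igll1-/- replicate 2, IGHV12-3: AGDMMGYWYFDV
Igll1-/- replicate 2, IGHV1-82: ARGNSAWFAY
Igll1-/- replicate 2, IGHV1-47: ARYDGYYYAMDY

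In most of these sequences a stop codon lies in the CDR3, and in 4 of them the CDR3 reads through. The same 2 kinds made up all unproductive clonotypes. The tables listed 0 clonotypes with a CDR3 out of frame, so the frame-shifted joins that usually form most failed rearrangements are not analysed here, and shares below are of the in-frame part. A stop in the CDR3 was found in 3085 and 3072 unproductive clonotypes of the WT libraries and in 1656 and 2975 of the Igll1-/- libraries. No stop in the CDR3 was found in 1153 and 428 in WT and in 294 and 537 in Igll1-/-. The second kind thus made up 27.2% of the unproductive clonotypes of WT replicate 1 and between 12.2% and 15.3% in the other libraries. For these the tables do not show what made the rearrangement unproductive.

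Both kinds differed in how they matched the reference V genes. A V segment identical to the reference was found in 39.8% to 45.4% of clonotypes with a stop in the CDR3, much as in productive clonotypes with 37.5% to 44.6%. Among those without a stop in the CDR3 it was found in only 16.01% to 18.6%. Of the latter, 45.6% and 54.9% in WT and 49.7% and 59.2% in Igll1-/- libraries had the same CDR3 and J gene as a productive clonotype of the same library. MRYDDSYWYFDV, AGDMMGYWYFDV, ARGNSAWFAY and ARYDGYYYAMDY belong to this kind. AGDMMGYWYFDV was listed with J gene IGHJ1 in 68 clonotypes of Igll1-/- replicate 2, of which 2 were unproductive.

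As a share of all clonotypes of a library, unproductive clonotypes made up 7.69% and 7.03% in WT and 6.02% and 6.03% in Igll1-/- B-1a cells. Both Igll1-/- libraries lay below both WT libraries. The means were 7.36% ± 0.47 and 6.03% ± 0.01 (SD, n = 2 each), a difference of −1.33 percentage points (exact permutation test, two-sided, p = 0.333, the smallest that 2 against 2 libraries allow). Wilson 95% intervals of single libraries, which cover counting error only, ran from 7.47% to 7.91% in WT replicate 1 and from 5.77% to 6.29% in Igll1-/- replicate 1. After near-copies whatever the V gene were left out of both classes the difference was −0.72 points, with 7.89% in WT replicate 2 and 7.78% in Igll1-/- replicate 2. With at least 10 reads per clonotype the libraries overlapped, at 5.19% and 5.95% in WT and 5.20% and 4.01% in Igll1-/- (exact permutation test, p = 0.667). Clonotypes with a stop in the CDR3 alone gave the same order as all unproductive clonotypes, with 5.88% ± 0.40 of all clonotypes in WT and 5.11% ± 0.00 in Igll1-/- (SD, n = 2 each).

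By reads the order of the genotypes was the opposite. Unproductive clonotypes held 4.66% and 5.53% of the reads in WT and 5.75% and 7.44% in Igll1-/- libraries, a difference of 1.499 points (exact permutation test, p = 0.333). The order turned on few clonotypes. ARL*LYAMDY alone held 3671 reads, 35.3% of the unproductive reads of Igll1-/- replicate 1. Its V segment was 90% identical to the reference, against 100% for the other sequences listed above, so its label IGHV5-17 is less certain. AGDMMGYWYFDV held 7917 reads, 37.3% of those of Igll1-/- replicate 2. In WT libraries the largest unproductive clonotype held 6.48% and 10.5%. Without the largest unproductive clonotype of each library the difference was −0.38 points, and with stops in the CDR3 only it was −0.07 points.

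**Figure D1:**
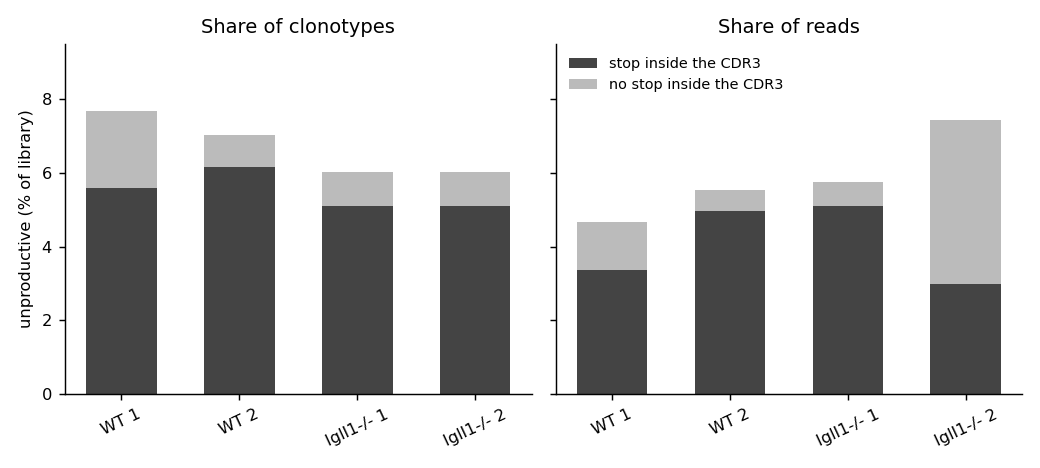
Unproductive clonotypes in each of the 4 libraries as percent of all clonotypes and as percent of all reads, split by whether a stop codon lies in the CDR3. By clonotypes both WT libraries (7.69% and 7.03%) lie above both Igll1-/- libraries (6.02% and 6.03%), whereas by reads the Igll1-/- libraries (5.75% and 7.44%) lie above WT (4.66% and 5.53%).

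Most unproductive clonotypes were small. A single read supported 76.1% to 78.5% of them in the 4 libraries, against 67.4% to 73.2% of productive clonotypes. The share was higher for unproductive clonotypes in 4 of 4 libraries, by 6.43 points on average (exact sign-flip permutation test over libraries, p = 0.125, the smallest that 4 libraries allow). The mean number of reads per clonotype was 2.38 and 3.36 in WT and 5.33 and 6.05 in Igll1-/- libraries, against 4.05, 4.34, 5.59 and 4.83 for productive clonotypes of the same libraries. Only in Igll1-/- replicate 2 was the unproductive mean the higher of the pair (mean difference −0.43 reads, exact permutation test, p = 0.5). No molecular barcode marks the original rearrangement, so a read count mixes cells with PCR amplification.

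Large clonotypes were surrounded by small near-copies. ARRRLL**LRYYFDY, with 1229 reads under IGHV1-7 in WT replicate 2, was listed with the same J gene in 100 clonotypes on 63 different V genes. All 100 were unproductive. ARL*LYAMDY was listed in 59 clonotypes on 42 V genes of Igll1-/- replicate 1. A clonotype was called a near-copy where its CDR3 lay within 1 amino acid of a clonotype of the same library and J gene with at least 10 times its reads. Whatever the V gene, near-copies made up 33.1% and 56.3% of unproductive clonotypes in WT and 47.0% and 52.4% in Igll1-/-, and 38.7%, 61.5%, 54.9% and 63.8% of productive clonotypes. By this count productive clonotypes had the higher share in 4 of 4 libraries. With the V gene also required to match the order turned, with 14.1%, 22.3%, 25.3% and 24.7% of unproductive against 11.2%, 15.7%, 17.3% and 18.96% of productive clonotypes.

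Some unproductive clonotypes lay beside a large productive clonotype. MRYGNY*YFDV had 73 and 117 reads in the WT libraries beside MRYGNYWYFDV, a productive IGHV11-2 clonotype with 13602 and 15813 reads. AGDNYGY*YFDV had 158 reads in Igll1-/- replicate 1 beside AGDNYGYWYFDV of IGHV12-3 with 22183 reads. AGDLYDGYYYFD* had 717 reads in Igll1-/- replicate 2 beside AGDLYDGYYYFDY with 10479 reads. With the V gene also required to match, 10.7% to 16.8% of unproductive clonotypes lay within 1 amino acid of a productive clonotype at least 10 times larger. The share depended on where the stop fell. It was 4.45% to 9.96% for stops inside the CDR3, away from both ends, and 33.6% to 46.7% for stops at the last residue.

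Most stops lay in the middle of the CDR3, where the D gene is read. The stop nearest the start of the CDR3 lay inside, neither in the first 2 nor in the last 4 residues, in 75.8% and 82.0% of stop clonotypes in WT and 71.6% and 69.5% in Igll1-/- libraries. It was the last residue in 9.17% and 5.99% in WT and in 12.98% and 15.03% in Igll1-/-. More than 1 stop was found in 25% to 38.3%, with up to 6 in a CDR3. Stop clonotypes of IGHD1-1, the D gene most used, carried the residues LR* in 63.3% and 70.2% in WT and in 59.0% and 61.0% in Igll1-/-. YGS, from another reading of the same D gene, was present in 9.91% to 15.5% of its stop clonotypes and in 41.0% to 44.4% of its productive clonotypes.

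D genes of the IGHD2 family gave stops in other words. LW*L was found in 24.3%, 53.3%, 15.7% and 43.7% of the stop clonotypes of IGHD2-1 in the order WT replicates 1 and 2, Igll1-/- replicates 1 and 2. L* was found in 36.8% to 67.2% of those of IGHD2-4. LL**L was found in 64.1% of those of IGHD2-5 in WT replicate 2, where ARRRLL**LRYYFDY was the largest unproductive clonotype, and in 10.7% to 19.9% in the other libraries. These words were chosen after the sequences were seen, and the productive class cannot hold those with a stop.

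D gene use differed between unproductive and productive clonotypes. Of 22 D genes tested, 12 differed between the classes of the same library (54.5%), 3 higher (13.6%) and 9 lower (40.9%) among unproductive clonotypes (quasi-likelihood test of edgeR, p-values adjusted after Benjamini and Hochberg). With trimmed-mean (TMM) scaling the split was 5 higher and 3 lower, and with DESeq2 it was 6 and 7. Both moved the median of all D genes by 0.38 on the log2 scale, and DESeq2 also changed the test. A stop in the CDR3 by itself makes a clonotype unproductive. D genes often read with a stop are therefore raised in that class by its definition, and the others lowered. The part of the differences in D gene use beyond this was not tested. IGHD2-4 made up 12.8% and 9.06% of unproductive clonotypes in WT and 14.2% and 9.05% in Igll1-/-, against 8.34%, 5.64%, 7.67% and 7.35% of productive clonotypes. It was higher in 4 of 4 libraries, with a log2 fold change of 0.62 (SE 0.12, edgeR adjusted p = 0.0062).

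IGHD2-1 was also higher among unproductive clonotypes, with a log2 fold change of 0.40 (SE 0.10, edgeR adjusted p = 0.012). IGHD1-1 made up 35.3% and 33.5% of unproductive clonotypes in WT and 36.8% and 33.6% in Igll1-/-, against 28.6%, 28.5%, 29.7% and 30.9% of productive clonotypes. Its log2 fold change was 0.24 (SE 0.08, edgeR adjusted p = 0.030). The call for IGHD1-1 was lost without WT replicate 1 (0.22, adjusted p = 0.36 by edgeR), without WT replicate 2 (0.24, adjusted p = 0.078) and without Igll1-/- replicate 1 (0.22, adjusted p = 0.31). IGHD2-5 was at 19.8% of unproductive clonotypes in WT replicate 2 and at 7.40% to 9.34% elsewhere, and did not pass (log2 fold change 0.62, edgeR adjusted p = 0.070). It passed with TMM scaling (0.996, edgeR adjusted p = 0.0013) and with DESeq2 (0.995, adjusted p = 0.013). After near-copies were left out of both classes it passed with the same V gene required (0.70, edgeR adjusted p = 0.023) and whatever the V gene (0.75, edgeR adjusted p = 0.00076). It also passed when WT replicate 1 was left out (0.64, edgeR adjusted p = 0.026) or Igll1-/- replicate 1 (0.79, adjusted p = 0.012), and was 0.30 without WT replicate 2 (adjusted p = 0.078).

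Of the 9 D genes that were lower among unproductive clonotypes, IGHD4-1 was the most used. It made up 5.26% and 2.80% of unproductive clonotypes in WT and 4.36% and 5.27% in Igll1-/-, against 10.2%, 12.7%, 9.71% and 8.71% of productive clonotypes. The groups did not overlap, and the log2 fold change was −1.24 (SE 0.24, edgeR adjusted p = 0.0062). The 3 tested genes of the IGHD3 family were all lower, with log2 fold changes of −1.24 for IGHD3-1, −0.88 for IGHD3-2 and −0.74 for IGHD3-3. With TMM scaling IGHD4-1, IGHD3-1 and IGHD6-3 were the 3 called lower. IGHD1-2, IGHD2-2, IGHD5-1, IGHD5-2 and IGHD6-3 were the other 5, between −1.93 and −0.74. A stop in the CDR3 was found in 0.93% to 2.81% of all clonotypes of IGHD4-1 and in 2.49% to 2.61% of those of the IGHD3 family. It was found in 5.59% to 7.31% of those of IGHD1-1 and in 6.24% to 8.80% of those of the IGHD2 family. Clonotypes with no D gene assigned held a stop in 0.82% to 1.56%.

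**Figure D2:**
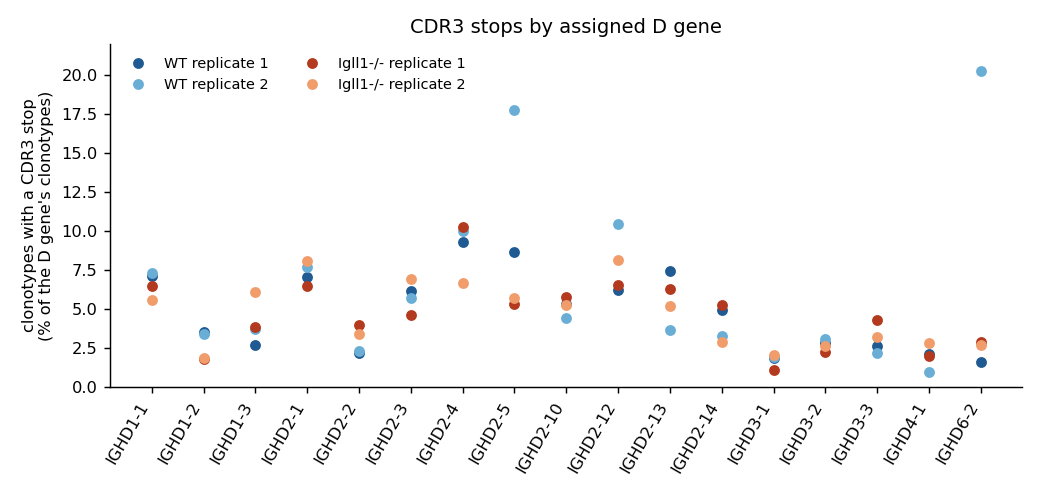
Percent of the clonotypes of a D gene that carry a stop codon in the CDR3 (vertical axis), for the 17 D genes compared between genotypes, with 1 point per library. IGHD1-1 (5.59% to 7.31%) and IGHD2-4 (6.64% to 10.3%) lie above IGHD4-1 (0.93% to 2.81%) in all 4 libraries, and WT replicate 2 stands apart on IGHD2-5 (17.8%) and on the little used IGHD6-2 (20.2%).

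Between genotypes, 0 of 17 D genes passed (0.0%) among unproductive clonotypes with edgeR, 0 with DESeq2, and 1 had an unadjusted edgeR p under 0.05. The smallest adjusted p, 0.094, belonged to IGHD3-2, at 2.29% and 2.29% in WT and 1.59% and 1.59% in Igll1-/- (log2 fold change −0.52, SE 0.07). J gene use was close in both genotypes. IGHJ2 was the J gene most used, at 44.8% and 45.9% of unproductive clonotypes in WT and 43.4% and 42.7% in Igll1-/-. It was the only J gene whose genotypes did not overlap, with a difference of −2.30 points (exact permutation test, p = 0.333). IGHJ3 was at 24.9% and 16.1% in WT and 21.9% and 22.7% in Igll1-/-, so the WT libraries lay on both sides of Igll1-/-.

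Against productive clonotypes, 0 of 4 J genes moved in the same direction in all 4 libraries (exact sign-flip permutation tests, p = 0.25 to 0.5). The 2 kinds of unproductive clonotype differed here. Those without a stop in the CDR3 used IGHJ4 in 24.3% and 29.2% in WT and 29.9% and 29.2% in Igll1-/-, against 17.98% to 19.6% of productive clonotypes. The excess was 9.72 ± 2.52 points (SD over 4 libraries). IGHJ4 made up 13.6% to 20.6% of the clonotypes with a stop in the CDR3.

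Unproductive clonotypes had longer CDR3s. The mean length was 11.98 and 12.42 amino acids in WT and 11.70 and 12.08 in Igll1-/-, against 10.69, 10.51, 10.42 and 10.24 for productive clonotypes. The difference was positive in 4 of 4 libraries and averaged 1.58 amino acids, with values between 1.27 and 1.91 (exact sign-flip permutation test, p = 0.125, the smallest possible). Clonotypes with a stop in the CDR3 averaged 12.19 and 12.61 in WT and 11.83 and 12.34 in Igll1-/-. Those without a stop averaged 11.42 and 11.09 in WT and 10.95 and 10.61 in Igll1-/-. Most of the class is defined by a stop in the CDR3, and a longer CDR3 has more places for one. The part of the length difference that follows from this was not tested. A CDR3 over 30 amino acids was listed for 42 and 17 unproductive clonotypes in WT and 28 and 82 in Igll1-/-. With CDR3s of at most 30 amino acids in both classes the differences were 0.95 and 1.77 in WT and 0.84 and 1.11 in Igll1-/-, with a mean of 1.17. Under all alternatives tried the mean lay between 1.17 and 1.77. Between genotypes the mean length differed by −0.31 amino acids (exact permutation test, p = 0.667), and the libraries overlapped. That difference was 0.38 after near-copies of any V gene were left out, and −0.67 with CDR3s of at most 30 amino acids, where the libraries did not overlap (exact permutation test, p = 0.333).

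The share of unproductive clonotypes rose with CDR3 length. Of clonotypes with 2 to 7 amino acids, 2.18% to 4.07% were unproductive in the 4 libraries. Of those with 17 or more, 12.4% to 18.4% were. The rise was not even in every library, since WT replicate 2 had its highest share, 17.02%, at 14 to 16 amino acids. Clonotypes with a stop in the CDR3 were at most 2.82% at 2 to 7 and at least 11.4% at 17 or more. Those without a stop went from 1.26% to 3.15% and 0.68% to 1.08% in WT. In Igll1-/- they went from 0.65% to 1.02% and 0.801% to 0.807%. A longer CDR3 has more places for a stop, so a rise follows from how the class is defined. The part of the rise beyond this was not tested. Stop clonotypes of the D gene IGHD1-1 alone were longer than productive clonotypes of that gene by 1.02 ± 0.37 amino acids (SD over 4 libraries), and those of the IGHD2 family by 1.37 ± 0.67. On IGHV11-2 the difference was 1.01 ± 0.18, on IGHV12-3 it was 0.74 ± 0.43 and on the IGHV1 family 1.85 ± 0.56. All were positive in 4 of 4 libraries. With CDR3s of at most 30 amino acids these values were 0.52 ± 0.26 for IGHD1-1, 0.93 ± 0.72 for the IGHD2 family, 0.85 ± 0.36 for IGHV11-2, 0.65 ± 0.30 for IGHV12-3 and 1.37 ± 0.57 for the IGHV1 family, also positive in 4 of 4 libraries.

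The length distribution of stop clonotypes had peaks that fell at the length of a large clonotype. The part of near-copies in these peaks was not tested. In WT replicate 2, 19.2% of stop clonotypes had 15 amino acids, the length of ARRRLL**LRYYFDY, against 3.93% to 6.55% in the other libraries. In Igll1-/- replicate 2, 20.5% had 13 amino acids, the length of AGDLYDGYYYFD*, against 10.2% to 10.6%. That clonotype, with 717 reads, was not among the 3 largest unproductive clonotypes of its library, which held no stop in the CDR3. In Igll1-/- replicate 1, 16.7% had 10 amino acids, the length of ARL*LYAMDY, against 7.71% to 11.2%. For productive clonotypes these shares varied less, with 3.32% to 3.87% at 15 amino acids over the 4 libraries.

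**Figure D3:**
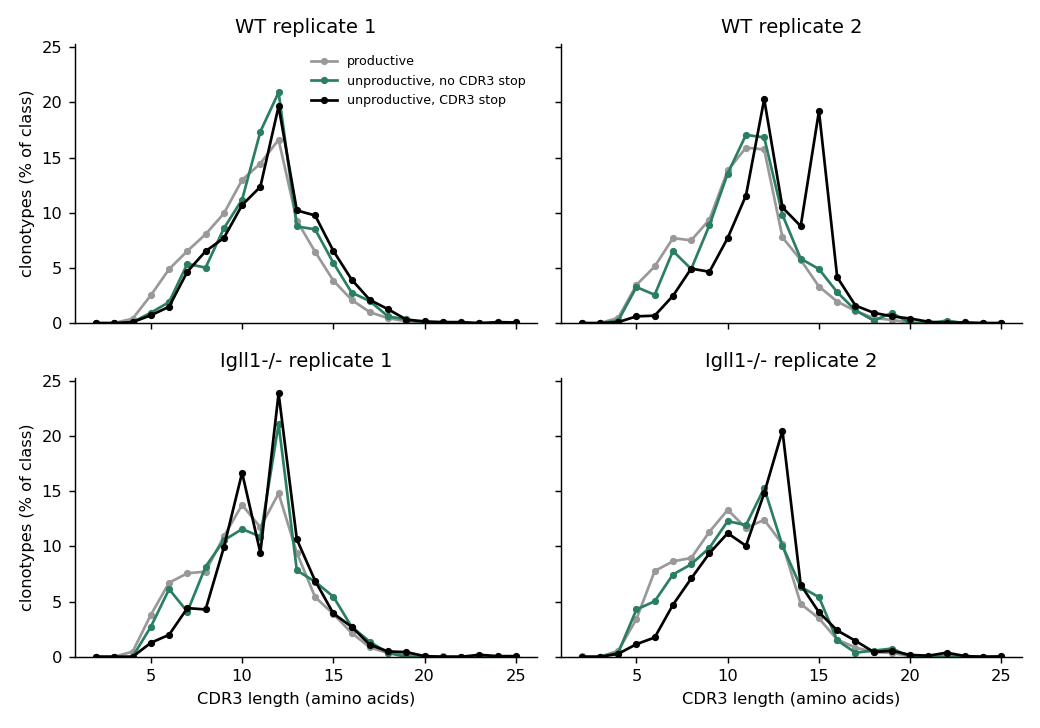
CDR3 length in amino acids against the percent of clonotypes of a class with that length, 1 panel per library, for productive clonotypes, unproductive clonotypes without a stop in the CDR3 and those with a stop. Stop clonotypes are shifted to longer CDR3s in every panel, and their peaks at 15 (WT replicate 2, 19.2%), 10 (Igll1-/- replicate 1, 16.7%) and 13 amino acids (Igll1-/- replicate 2, 20.5%) match the lengths of large clonotypes.

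V gene use also differed between the classes. Among 66 V genes marked functional, 18 differed between unproductive and productive clonotypes of the same library (27.3%), 9 in each direction (13.6% each) (quasi-likelihood test of edgeR, p-values adjusted after Benjamini and Hochberg). The split was 11 higher and 6 lower with TMM scaling and 10 higher and 6 lower with DESeq2, with medians moved by 0.15 and 0.11 on the log2 scale. Those higher among unproductive clonotypes included IGHV11-2 and IGHV12-3, which in B-1a cells are known for receptors that bind phosphatidylcholine (PtC), and IGHV5-2, the V gene known as VH81X, which is rearranged often in early life but pairs poorly with SLC. The primers bound in framework region 3 of V and in J, with primers added for IGHV12-3, and a V gene's share depends on its primer in both classes.

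IGHV5-2 made up 0.97% and 0.60% of unproductive clonotypes in WT and 0.72% and 0.80% in Igll1-/-, against 0.34%, 0.17%, 0.18% and 0.40% of productive clonotypes. Its log2 fold change was 1.52 (SE 0.22, edgeR adjusted p = 0.0049). Of all IGHV5-2 clonotypes, 19.1% and 20.8% were unproductive in WT and 20.6% and 11.4% in Igll1-/-, against 6.02% to 7.69% over all V genes. These shares rested on 14 to 41 unproductive clonotypes per library, and 3 clonotypes are 0.071% to 0.15% of the unproductive clonotypes of a library.

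IGHV11-1 had the largest rise among the tested genes. It made up 0.73% and 0.69% of unproductive clonotypes in WT and 0.56% and 0.80% in Igll1-/-, against 0.15%, 0.11%, 0.21% and 0.33% of productive clonotypes (log2 fold change 1.92, SE 0.30, edgeR adjusted p = 0.0049). IGHV1-49, IGHV1-14 and IGHV3-3 followed with 1.73, 1.56 and 1.51. The call for IGHV1-14, which rested on 2 to 19 unproductive clonotypes per library, was lost without WT replicate 1 (1.69, edgeR adjusted p = 0.20) and without WT replicate 2 (1.59, adjusted p = 0.10). The call for IGHV3-3 was lost without Igll1-/- replicate 2 (1.35, edgeR adjusted p = 0.13) and also without WT replicate 1 (1.35, adjusted p = 0.17).

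IGHV12-3 was the V gene most used among unproductive clonotypes. It made up 8.57% and 6.31% in WT and 13.5% and 11.4% in Igll1-/-, against 4.80%, 4.49%, 3.91% and 3.87% of productive clonotypes. The log2 fold change was 1.17 (SE 0.23, edgeR adjusted p = 0.012). It was 1.03 without Igll1-/- replicate 2 (edgeR adjusted p = 0.065). After unproductive clonotypes near a larger productive one were left out, it was 0.67 and did not pass (edgeR adjusted p = 0.10).

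IGHV11-2 made up 5.71% and 6.89% of unproductive clonotypes in WT and 1.38% and 1.82% in Igll1-/-, against 2.76%, 4.63%, 0.79% and 0.91% of productive clonotypes. The log2 fold change between classes was 0.86 (SE 0.13, edgeR adjusted p = 0.0049), and 0.48 without the near-copies of productive clonotypes (adjusted p = 0.14). By reads both genes turned, with log2 fold changes of −0.50 for IGHV11-2 and −0.24 for IGHV12-3. After near-copies of any larger clonotype, whatever its V gene, were left out of both classes, the values were 1.44 and 1.35.

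V genes lower among unproductive clonotypes came from several families. IGHV6-3 had a log2 fold change of −1.07 and IGHV1-15 of −1.06, both with an edgeR adjusted p of 0.0049. IGHV8-8, IGHV6-6 and IGHV9-1 followed with −0.98, −0.94 and −0.84. Leaving out WT replicate 1 ended the call for IGHV8-8 (−0.92, edgeR adjusted p = 0.11), and that for IGHV6-6 (−0.81, adjusted p = 0.12), which was also lost without Igll1-/- replicate 2 (−1.11, adjusted p = 0.057). IGHV5-17 was much used in both classes, at 3.26% and 2.17% of unproductive clonotypes in WT and 3.69% and 4.78% in Igll1-/-, against 6.03%, 4.01%, 5.86% and 7.17% of productive clonotypes (log2 fold change −0.76, SE 0.11, edgeR adjusted p = 0.0049).

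**Figure D4:**
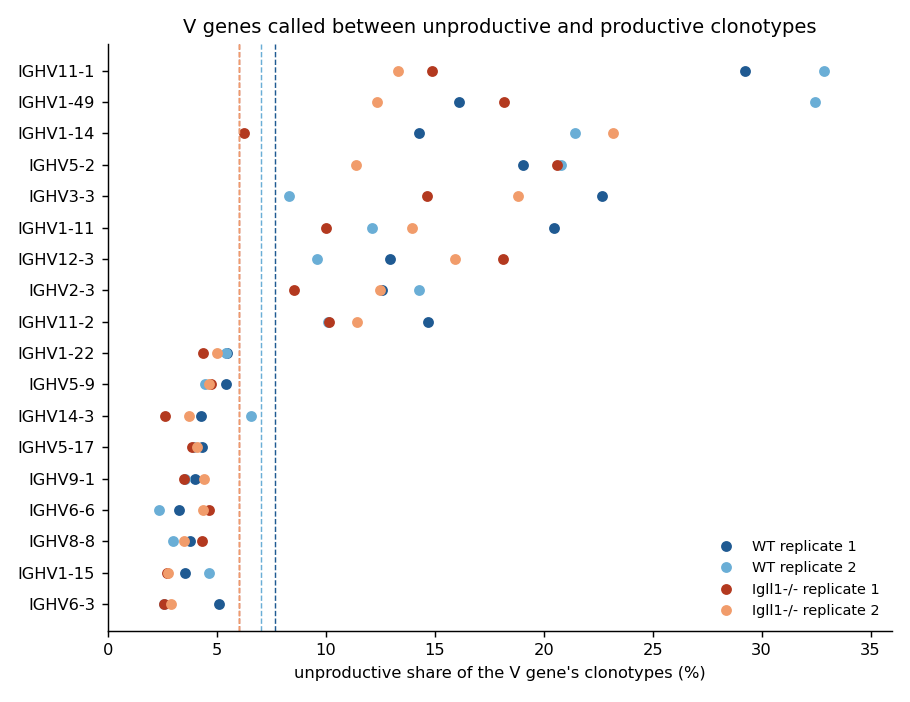
Percent of a V gene's clonotypes that were unproductive (horizontal axis), 1 point per library, for the 18 V genes called between the classes, ordered by their log2 fold change; dashed lines mark the share over all clonotypes of each library. For IGHV11-1 the points run from 13.3% to 32.9% and for IGHV6-3 from 2.55% to 5.09%, against lines at 6.02% to 7.69%.

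By V family, IGHV1, the large family far from the D genes, held 54.5% and 63.0% of unproductive clonotypes with a single V gene in WT and 51.0% and 53.6% in Igll1-/-. For productive clonotypes it held 55.8% to 57.9%, between the unproductive values. IGHV5, the family nearest to the D genes together with IGHV2, held 16.3% and 10.4% in WT and 17.6% and 18.03% in Igll1-/-, below the productive share of 17.4%, 14.7%, 18.9% and 22.7% in 4 of 4 libraries (mean difference −2.82 ± 1.91 points, exact sign-flip permutation test, p = 0.125). IGHV6 was lower in 4 of 4 libraries by 2.005 ± 0.26 points. IGHV11 and IGHV12 were higher in 4 of 4 libraries, by 2.40 ± 1.37 and 6.33 ± 3.96 points (exact sign-flip permutation test, p = 0.125 for each). Of the 18 V genes called, their 3 members IGHV11-1, IGHV11-2 and IGHV12-3 were all on the higher side. Most other families also kept the same direction in all libraries. IGHV2 was higher, and IGHV8, IGHV9, IGHV10 and IGHV14 were lower, in 4 of 4 libraries. IGHV1, IGHV3, IGHV4 and IGHV7 were mixed. A shared direction in 4 of 4 libraries therefore does not by itself set a family apart.

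Between genotypes, 3 of 56 V genes tested differed among unproductive clonotypes (5.36%), 1 higher (1.79%) and 2 lower (3.57%) in Igll1-/- (quasi-likelihood test of edgeR, p-values adjusted after Benjamini and Hochberg). In 17 of the 56 (30.4%) the libraries of the genotypes did not overlap, with Igll1-/- higher in 7 (12.5%) and lower in 10 (17.9%). Genotype labels drawn at random over the libraries, 2 against 2, give no overlap with a probability of 0.333, so lack of overlap alone marks no gene. IGHV11-2 was lower in both Igll1-/- libraries, with the shares given above. Its change was −1.96 on the log2 scale (SE 0.49, edgeR adjusted p = 0.0056). Its share of productive clonotypes was also lower in both Igll1-/- libraries. IGHV1-49 made up 1.84% and 2.46% in WT and 0.62% and 0.54% in Igll1-/- (log2 fold change −1.90, SE 0.60, edgeR adjusted p = 0.038). IGHV1-85 made up 0.54% and 0.40% in WT and 0.97% and 3.56% in Igll1-/- (2.28, SE 0.59, edgeR adjusted p = 0.0056), and its 2 Igll1-/- libraries were far apart.

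These calls were fragile. DESeq2 called 0 V genes, with an adjusted p of 0.060 for each of the 3, and clonotypes with a stop in the CDR3 alone gave 0. Without Igll1-/- replicate 2, the log2 change of IGHV1-85 was 1.03 (edgeR adjusted p = 0.40) and that of IGHV11-2 −2.18 (adjusted p = 0.30). Without Igll1-/- replicate 1, IGHV11-2 had −1.79 (edgeR adjusted p = 0.42). IGHV1-49 lost its call without WT replicate 2 (−1.67, edgeR adjusted p = 0.17), without Igll1-/- replicate 1 (−1.98, adjusted p = 0.18) and without Igll1-/- replicate 2 (−1.80, adjusted p = 0.30). After unproductive clonotypes near a larger productive one were left out, IGHV11-2 had −1.25 (edgeR adjusted p = 0.24).

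IGHV12-3 was higher in both Igll1-/- libraries than in either WT library among unproductive clonotypes, but did not pass (log2 fold change 0.74, SE 0.32, edgeR adjusted p = 0.26). It passed without WT replicate 1 (0.98, edgeR adjusted p = 0.0032). IGHV5-2 differed by −0.05 (SE 0.55, edgeR adjusted p = 0.98), with the libraries of both genotypes overlapping. The contrast of unproductive with productive clonotypes was then compared between the genotypes in the same fit. Of 66 V genes, 0 passed (0.0%) with edgeR, 0 with DESeq2, and 4 had an unadjusted edgeR p under 0.05. The smallest adjusted p, 0.075, belonged to IGHV12-3, whose contrast was larger in Igll1-/- by 1.01 on the log2 scale (SE 0.18). That difference passed without WT replicate 1 (1.17, edgeR adjusted p = 1.8e-10), without WT replicate 2 (0.83, adjusted p = 1.2e-06) and without Igll1-/- replicate 2 (1.12, adjusted p = 0.045). Each of these fits rests on 3 libraries, with the lone library of a genotype assumed to vary like the others, so its p is less certain than its size. It also passed after unproductive near-copies of productive clonotypes were left out (1.26, edgeR adjusted p = 0.030). It did not pass after near-copies were left out of both classes, with the same V gene (0.57, edgeR adjusted p = 0.68) or whatever the V gene (0.70, adjusted p = 0.27), nor with TMM scaling (0.93, adjusted p = 0.33).

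**Figure D5:**
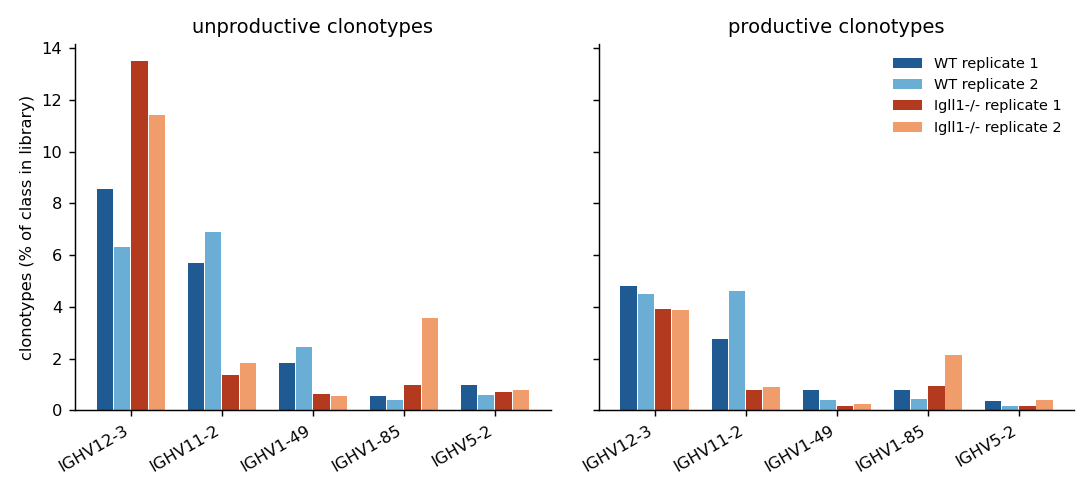
Percent of the unproductive (left) and productive clonotypes (right) of each library on 5 V genes, with 1 bar per library. Among unproductive clonotypes IGHV11-2 is lower in both Igll1-/- libraries (1.38% and 1.82%) than in WT (5.71% and 6.89%), and IGHV12-3 is higher (13.5% and 11.4% against 8.57% and 6.31%).

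The other V genes much used by unproductive clonotypes were of the IGHV5 and IGHV1 families. IGHV5-4 made up 5.17% and 2.74% in WT and 5.18% and 4.87% in Igll1-/-. IGHV1-19 made up 3.19% and 4.83% in WT and 2.62% and 3.10% in Igll1-/-. IGHV5-12, IGHV1-18, IGHV1-7, IGHV1-82 and IGHV1-72 lay between 1.20% and 5.29% in the 4 libraries. IGHV1-7, the V gene of the largest unproductive clonotype of WT replicate 2, stood at 5.29% there and at 1.20% to 1.79% in the other libraries. None of these 7 genes passed between genotypes or between classes.

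V gene use varied more between libraries for unproductive than for productive clonotypes. It was summed as the part of the clonotypes, among those given only 1 V gene, that 2 libraries did not place on the same V genes. For unproductive clonotypes this part averaged 25.8% ± 4.8 across the genotypes (SD, 4 pairs of libraries). The pairs share libraries, so this SD is not a spread of independent values. Igll1-/- replicates 1 and 2 differed from WT replicate 1 by 21.9% and 21.4%, and from WT replicate 2 by 30.4% and 29.3%. The higher mean across the genotypes thus came from the pairs with WT replicate 2. The replicates differed by 21.96% in WT and by 18.9% in Igll1-/-. For productive clonotypes the value was 17.8% between genotypes and 16.03% and 15.8% between replicates. There too the pairs with WT replicate 2 (20.3% and 20.6%) lay above those with WT replicate 1 (13.2% and 17.2%). Fewer unproductive clonotypes were counted, and the part of this in the larger values was not tested. The effective number of V genes, the number of equally used genes with the same Shannon entropy, was 48.1 and 43.6 in WT and 41.7 and 43.8 in Igll1-/- (exact permutation test, p = 0.667). Weighted by reads it was 35.6 and 26.9 in WT and 10.6 and 9.46 in Igll1-/- (exact permutation test, p = 0.333), where the largest unproductive clonotype held 35.3% and 37.3% of the unproductive reads.

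Few unproductive rearrangements recurred between libraries. Of 9556 distinct combinations of V gene, J gene and CDR3 with a stop, 8794 were found in 1 library, 580 in 2, 143 in 3 and 39 in 4. Between 3.18% and 14.9% of the stop clonotypes of a library were also listed in another given library, against 8.34% to 23.1% of productive clonotypes. For unproductive clonotypes without a stop in the CDR3 the share was at most 0.47%. The classes were of very unlike size, and a smaller class offers fewer clonotypes to match. A library held 1611 to 3031 distinct stop clonotypes, 293 to 1149 without a stop and 29584 to 52899 productive ones. The part of class size in these shares was not tested. Those found in all 4 libraries could be very unequal in reads. ARRRLL**LRYYFDY on IGHV1-7 had 1250 reads in WT replicate 2 over all its D assignments, 9 in WT replicate 1 and 2 and 7 in the Igll1-/- libraries. The part of reads carried over between libraries in this sharing was not tested.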

How the data were processed

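Rearranged Igh genes in B-1a cell DNA were amplified with primers in framework region 3 and J, and products of 120 to 280 bp were sequenced. The authors ran IMGT/High-V-QUEST on the reads, and each deposited table gives the count of reads per clonotype and the percent identity of its V segment. The 4 libraries held 32386 to 58205 clonotypes from 180593 to 285517 reads. The 6 Igk tables were not used, and some items are not reported here.

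Here each clonotype counted as 1 unless reads are named. Clonotypes listed with several V genes stayed in the total but counted to no gene. A gene needed 10 clonotypes in at least 2 libraries (genotypes), or in at least 4 of 8 columns (classes, with library as a term), and was tested with edgeR 4.0.16 in R 4.3.3 at an adjusted p of 0.05, the library size being all clonotypes of the class. DESeq2 1.42.0 was an alternative. The SE given with an edgeR log2 fold change is its absolute value divided by the square root of the F statistic of the test. The edgeR test was tried on simulated counts with known changes, drawn independently, with no near-copies and no library effect shared by the classes. That run cannot show how the test behaves on the present data. Single values were compared by exact permutation over libraries, with every arrangement counted in numpy 2.4.6. Percent values carry the counting error given by Wilson 95% intervals.

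The named V genes were up to 5 in each direction with the largest change past the threshold, the 3 with the smallest p where none passed, the 10 most used, and IGHV12-3, IGHV11-2 and IGHV5-2. Members and lists were chosen with earlier results of these data known. Replicates were kept as separate libraries after their labels. A comparison of their V gene counts (chi-square 478 with 65 degrees of freedom in WT, 255 with 62 in Igll1-/-) treats near-copies as independent. Alternatives included TMM scaling, minimum reads, reads in place of clonotypes, leaving out near-copies, and leaving out each library.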

Additional observations from a re-analysis of the deposited data

Results flagged for a closer look

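For IGHV1-85 the share of unproductive minus that of productive clonotypes was negative in both WT and positive in both Igll1-/- libraries. It was −0.24 and −0.023 percentage points in the WT libraries and 0.022 and 1.41 points in the Igll1-/- libraries. The values of −0.023 and 0.022 lie under the share of 3 clonotypes, so their sign carries no direction. The test of this difference between genotypes did not pass (log2 0.81, SE 0.37, edgeR adjusted p = 0.52), and the largest value came from Igll1-/- replicate 2 alone.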

How the results depend on the processing

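With 2 libraries per genotype, single values could not reach an exact permutation p under 0.333. Of the values that answer a comparison, 155 were counted as kept under the alternatives, 39 as moved and 6 as reversed. A single value was kept unless its sign reversed, and a count of genes when it stayed of similar size. A value of 0 thus also counted as kept. This applied to the class difference in the share with 1 read, with at least 2 and with at least 10 reads. There the filter itself sets the difference to 0, so those entries are no check. A mean difference between libraries was kept when it moved by less than its SD. The genes behind a kept count could change. With TMM scaling, 6 of the 12 D genes and 15 of the 18 V genes called between classes kept their call and direction. The number of V genes called between genotypes, 3, became 0 with DESeq2, with the replicate block, with the first V gene listed, with stops in the CDR3 only and with at least 10 reads. It became 1 with at least 2 reads and when near-copies of productive clonotypes, or of any clonotype of the same V gene, were left out, 6 by reads, and 1 to 6 without each library. Same-numbered libraries deviated from their genotype means with a correlation of 0.05 over 56 V genes, so the numbers were not taken to pair libraries. The replicate block was also fitted for D genes between genotypes, where the count was 0 with and without it. The V genes called between classes, 18, became 8 with at least 2 reads, 0 with at least 10, 6 by reads and 10 to 22 without each library. The V genes whose class contrast differed between genotypes, 0, became 2 with no filter, 1 without near-copies of productive clonotypes and 0 to 5 without each library. The D genes called between classes, 12, became 6 with at least 2 reads and 2 with at least 10, and numbered 9 to 10 without each library. The J genes whose genotypes did not overlap, 1, became 3 with at least 2 reads, 2 with at least 10 reads or functional V genes, 0 without near-copies of productive clonotypes or of any clonotype whatever its V gene, and 1 to 4 without each library. The J genes that moved alike in all libraries between classes, 0, became 2 with at least 2 reads, 1 with stops only, 2 without near-copies whatever the V gene, and 0 to 2 without each library. The difference in V gene use between genotypes, 25.8%, became 38.3% with at least 2 reads, 56.7% with at least 10 and 63.0% by reads.

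Reversed values were the following, and the cause was not tested. The genotype difference in the unproductive share was 1.499 points by reads, −0.069 by reads with stops only and −0.38 by reads without the largest unproductive clonotype. The genotype difference in CDR3 length was 0.38 without near-copies whatever the V gene. Reads per clonotype differed between classes by 1.49 with at least 2 reads and by 13.2 with at least 10. On the log2 scale, IGHV5-2 between genotypes was 0.0088 without near-copies of productive clonotypes, 0.11 and 0.12 without those of any clonotype, with the same V gene or whatever the V gene, between −0.34 and 0.34 without each library, with 0.34 without WT replicate 1 and 0.016 without Igll1-/- replicate 1. By reads the class contrast was −0.24 for IGHV12-3, −0.50 for IGHV11-2, −0.29 for IGHD1-1, −0.087 for IGHD2-1 and −0.090 for IGHD2-5. IGHD2-3 was −0.037 without near-copies of productive clonotypes and −0.0031 without those of any clonotype. The difference of the class contrast for IGHV6-6 was −0.19 with at least 2 reads.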
